A study of Mus musculus with 4 samples.

Results

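Th1 cultures that lacked STAT4 were compared with wild type Th2 cultures, to see how far helper T cells given the Th1 signal without its transcription factor resembled Th2 cells. The members are 2 of the 4 arrays in the series, chosen by their labels, 1 array a side. Both came from naive CD4+ T cells, sorted as CD44- and CD62L+ from mouse spleen and lymph nodes. The Th1 cells carried the allele C57BL6-STAT4<tm1> (STAT4KO), and the Th2 cells were C57BL/6J (wild type). Th1 cultures had 3 days of CD3 and CD28 stimulation with interleukin-12 at 20 ng/ml and an antibody against interleukin-4, then kept 4 days in interleukin-2 at 50 U/ml with interleukin-12 at 10 ng/ml. Th2 cultures received the same activation with interleukin-4 at 10 ng/ml and an antibody against interferon gamma, then 4 days in interleukin-2 and interleukin-4. After 7 days both received a further 2 h of stimulation through these receptors, Th1 cells with interleukin-12 and Th2 cells with interleukin-4. The other arrays, Th1 wild type (C57BL/6J) and Th2 STAT6-deficient (B6.129S2©-STAT6<tm1Gru>/J (STAT6KO)), are used as landmarks. Genotype, culture condition and array differ together between the compared cells and cannot be told apart. The age, sex and number of the mice are not given in the sources used here.

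Naive helper T cells that receive interleukin-12 activate STAT4, which raises interferon gamma and, with T-bet, sets up the Th1 fate. Interleukin-4 activates STAT6, which raises GATA3 and with it the Th2 cytokine genes. The fates restrain each other, partly through T-bet and GATA3. In a Th1 culture without STAT4, interleukin-12 cannot act through that factor and interleukin-4 is held off by antibody.

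Expression was read on Affymetrix Mouse Genome 430 2.0 arrays as log2 RMA values (robust multi-array average, a log2 level per probe set). Each gene is represented by its brightest probe set. A gene is called higher or lower where its 2 log2 values differ by at least 1, which is 2-fold, and the brighter of them reaches 5.82, the pooled median of all probe sets. All differences are Th1 STAT4-deficient minus Th2 wild type on the log2 scale unless another pair is named. There are no replicates, so no spread between samples can be given and nothing was tested; each value describes these arrays alone. As a technical guide, probe sets of the same gene disagreed in this difference with an SD of 0.73 over 5598 genes.

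The compared arrays differed in shape. The median probe set read 6.01 in Th1 STAT4-deficient and 5.77 in Th2 wild type cells, while the 75th percentile read 7.63 and 8.10, so dim probe sets stood higher and bright ones lower on the STAT4-deficient array. As a sign of RNA quality, the actin control read 0.66 and 0.85 log2 units brighter from its 3′ than from its 5′ probes. On the landmark arrays this gap was 0.32 for Th1 wild type and 2.08 for Th2 STAT6-deficient cells, and its part in the levels of that array was not tested. Over 45037 probe sets the STAT4-deficient array correlated with Th2 wild type at r = 0.92, with Th1 wild type at 0.96 and with Th2 STAT6-deficient at 0.93, on probe sets that share their base level. T cell genes were bright on both arrays (Cd3d 13.30 and 13.48, Cd4 11.65 and 9.75, Zap70 12.66 and 12.65), while the neutrophil genes S100a8, S100a9, Elane and Mpo stayed below the level minimum on both. The Y-linked genes Uty, Eif2s3y and Kdm5d were also below it on both arrays, and Xist read 12.44 and 13.12.

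Th1 cells without STAT4 differed from Th2 wild type cells about as widely as Th1 wild type cells did. At the level minimum were 12784 genes, and 4206 (32.9%) were called. Of these 1422 (11.1% of genes) were higher and 2784 (21.8%) lower in Th1 STAT4-deficient cells, and the median difference was −0.25. The called genes that were higher made up 33.8%, a share that was 17.4% after median centring, where the median difference was −0.53, and 47.7% after quantile normalization, where it was 0.07. The largest differences were on the lower side, with 239 genes at least 8-fold lower and 44 at least 8-fold higher, or 183 and 27 when readings below the level minimum are set to it. Several probe sets were present for 1710 of the called genes, and in 1309 they all differed the same way. The same rule called 33.5% of genes between Th1 wild type and Th2 wild type cells and 11.5% between Th1 STAT4-deficient and Th1 wild type cells. It called 26.5% between Th2 STAT6-deficient and Th2 wild type cells, 22.9% between the knockouts and 25.8% between Th1 wild type and Th2 STAT6-deficient cells. These pairs share arrays and are not independent of each other.

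**Figure D1:**
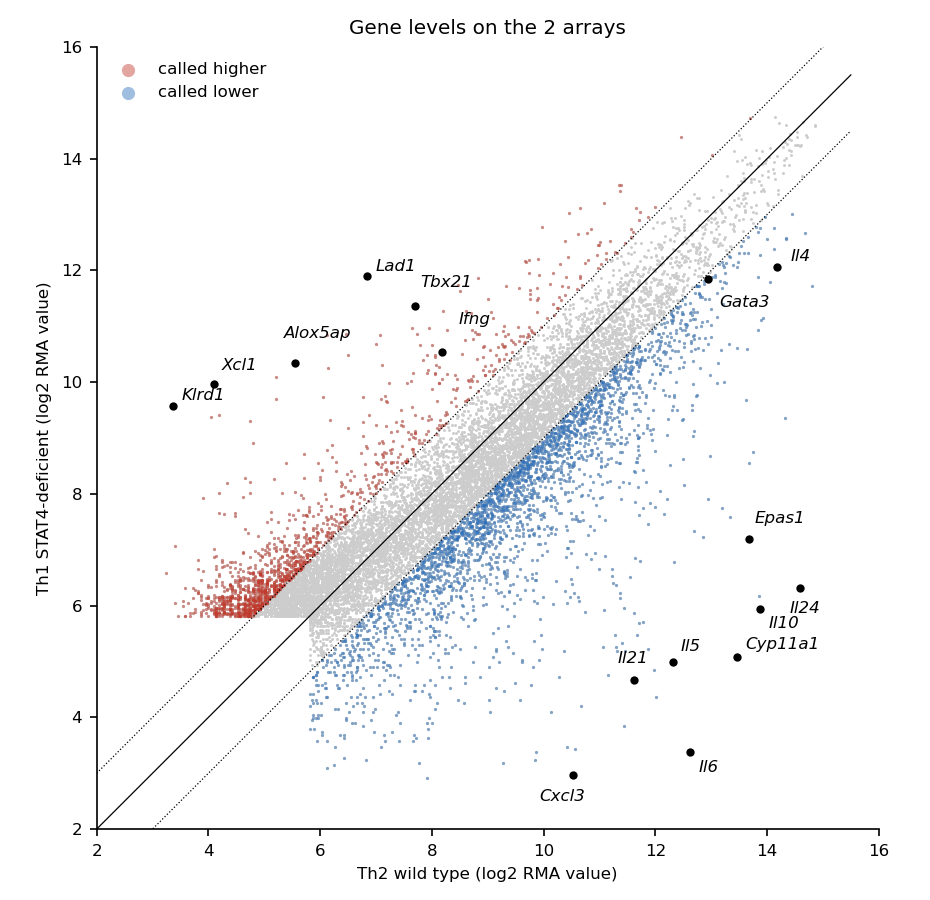
Level of each gene at the level minimum in Th1 STAT4-deficient (y axis) against Th2 wild type cells (x axis), both as log2 RMA values. The solid line marks equal levels and the dotted lines 2-fold; red points are the 1422 genes called higher and blue points the 2784 called lower. Il6, Cyp11a1, Il24 and Il10 lie farthest below the line and Klrd1 and Xcl1 farthest above it.

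The STAT4-deficient levels were set beside both wild types to see which they were nearer to. Of the 12784 genes 7911 (61.9%) were within 2-fold of both wild types. Another 3443 (26.9%) were within 2-fold of Th1 wild type only, 667 (5.22%) of Th2 wild type only and 763 (5.97%) of neither. The median absolute difference was 0.38 from Th1 wild type and 0.69 from Th2 wild type. The STAT4-deficient array enters both distances, and the Th1 arrays also share their culture condition. Of the genes near neither wild type 101 lay between them, 268 above both and 394 below both. Ifng, Il12rb2, Il4, Il13 and Gata3 were among those that lay between.

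Th1 genes were on the whole higher in STAT4-deficient Th1 than in Th2 wild type cells, although most stood below Th1 wild type. Of 21 at the level minimum 10 were higher and 5 lower, with a median difference of 0.96, beside 11.1% higher, 21.8% lower and −0.25 over all genes. After quantile normalization 13 were higher and 4 lower. The median against Th1 wild type was −1.85.

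Ifng, the signature Th1 cytokine, read 10.54 in Th1 STAT4-deficient and 8.18 in Th2 wild type cells, against 14.67 in Th1 wild type and 10.20 in STAT6-deficient Th2 cells. It was thus 5.11-fold above Th2 wild type and still far below Th1 wild type. Among the other secreted Th1 products, Lta (lymphotoxin alpha) read 11.87 and 8.83, 8.25-fold higher, and Tnf read 13.42 and 11.36, 4.15-fold higher. Their Th1 wild type levels were 12.53 and 14.31, so both were within 2-fold of that array. Xcl1, a chemokine that draws dendritic cells, read 9.97 and 4.10, at least 17.7-fold higher. Where the dimmer array lies below the level minimum, a fold is given as at least that against the minimum, since values there are close to background and have no order. Ccl3 read 12.17 and 9.67, and Ccl5 9.68 and 8.62; Ccl5 missed the 2-fold limit after median centring (0.82). Ccl4 differed by only 0.67. Fasl, the death ligand, was 1.50 higher.

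Tbx21, which encodes T-bet, stayed at a Th1 level. It read 11.36 without STAT4, 12.26 in Th1 wild type and 11.85 in the Th2 STAT6-deficient culture, against 7.69 in Th2 wild type cells, which left Th2 wild type alone at the low end and 12.7-fold below. Eomes, its relative, differed by 0.96 (7.92 and 6.96), Runx3 by 0.16 and Twist1 by 0.60 with both arrays below the level minimum. Hlx, a homeobox factor that works with T-bet, was lower, at 5.51 against 7.01, and also below the 7.77 of Th1 wild type.

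The receptors of interleukin-12 and interleukin-18 were split. Il12rb2, the signalling chain of the interleukin-12 receptor, read 6.53 and 4.52, at least 1.64-fold higher, with 9.63 in Th1 wild type cells. Its partner Il12rb1 ran the other way, at 6.65 against 10.98 in Th2 wild type cells, a 20.2-fold lower level, with 7.77 in Th1 wild type. Il18r1 was 2.65 higher and Il18rap differed by 0.19. The Stat4 probe set read 9.20 in Th1 STAT4-deficient and 8.96 in Th2 wild type cells, against 11.45 in Th1 wild type and 9.90 in STAT6-deficient Th2 cells. Th1 wild type was the brightest, and the compared arrays were 0.23 apart (−0.01 after median centring). The sources used here do not say if these probes match the region removed by the allele. Another 3 members were higher in Th2 wild type cells: Havcr2, the inhibitory receptor TIM-3, at 11.37 against 6.14, the chemokine receptor Cxcr6 at 12.52 against 8.17, and Il27ra at 9.11 against 8.10. The Il27ra call was lost after quantile normalization (−0.46) and loess (−0.56). Cxcr3, the classical Th1 chemokine receptor, differed by 0.71 (9.66 and 8.95), with 12.26 in Th1 wild type.

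**Figure D2:**
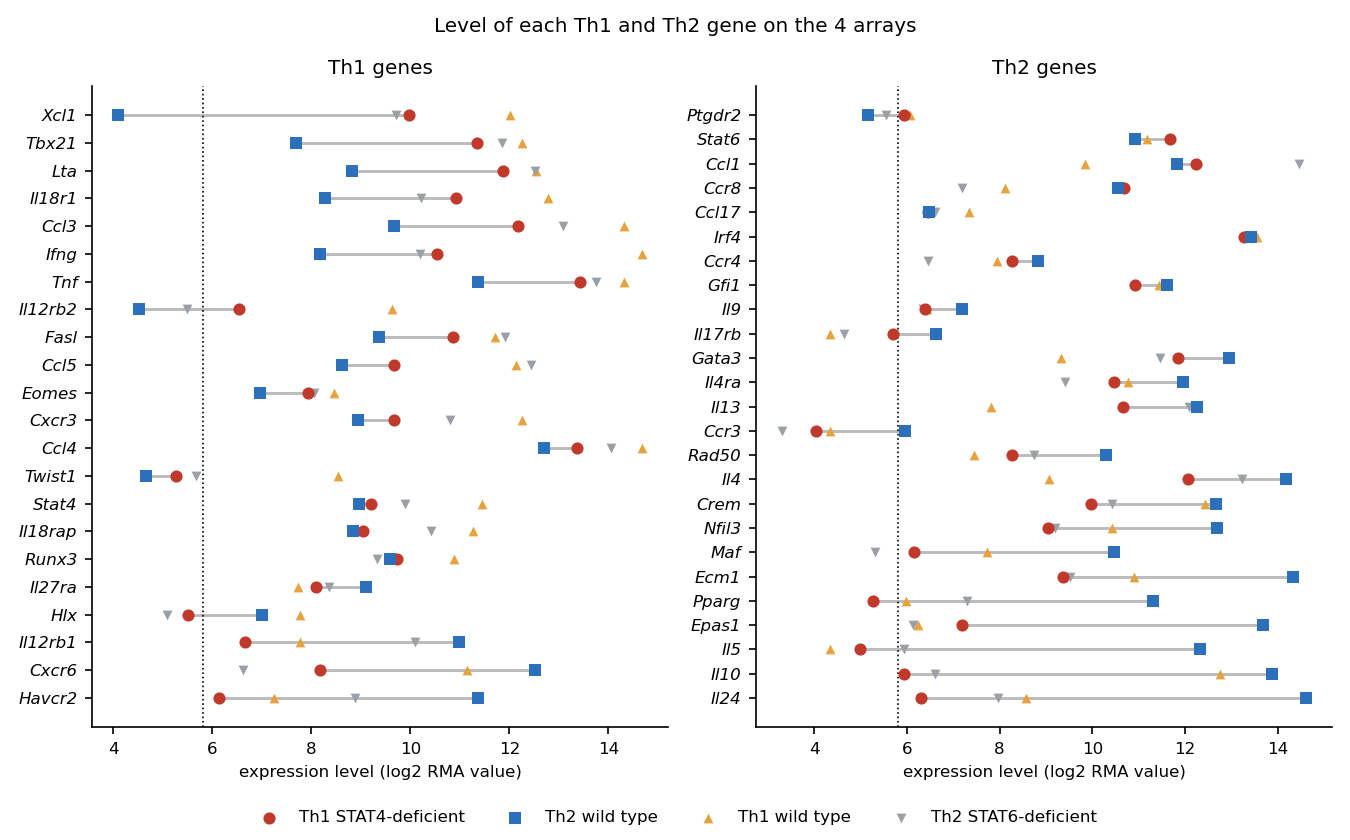
Expression level (log2 RMA value, x axis) of each measured Th1 gene (left) and Th2 gene (right) on the 4 arrays, ordered by the Th1 STAT4-deficient minus Th2 wild type difference, with a grey line joining those 2 arrays and a dotted line at the level minimum of 5.82. Tbx21 and Lta in STAT4-deficient cells sit near Th1 wild type, Il4, Il13 and Gata3 between the wild types, and Il5, Pparg and Epas1 far from Th2 wild type.

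Th2 genes did not reach their Th2 levels as a group. Of 25 at the level minimum 15 were lower in Th1 STAT4-deficient cells and none was higher by the deposited values, with a median of −1.60; 1 was higher after quantile normalization and after loess. Of the 25, 3 members were within 2-fold of Th2 wild type only, 6 of Th1 wild type only, 7 of both and 9 of neither. Over all genes these shares were 5.22%, 26.9%, 61.9% and 5.97%.

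The 3 cytokine genes of the Th2 locus differed by very unequal amounts. Il4 read 12.07 in Th1 STAT4-deficient and 14.17 in Th2 wild type cells, with 9.06 in Th1 wild type and 13.22 in STAT6-deficient Th2 cells. That is a bright signal, 4.29-fold short of Th2 wild type. Il13 read 10.65 and 12.26, 3.04-fold lower, with 7.80 in Th1 wild type. Il5 read 4.99 against 12.31, at least 89.9-fold lower, and both Th1 arrays (4.99 and 4.34) were below the level minimum. Rad50, the DNA repair gene that lies among these cytokine genes and holds control elements for them, was lower by its brightest probe set (8.27 against 10.28), while the median over its probe sets was −0.16.

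Gata3, the master regulator of Th2 cells, stood between the wild types and nearer to Th2. It read 11.84 in STAT4-deficient Th1 cells, 12.95 in Th2 wild type, 11.45 in Th2 STAT6-deficient and 9.31 in Th1 wild type cells, so Th1 wild type was the low array. The difference of −1.11 was under 2-fold after quantile normalization (−0.65) and loess (−0.71). Irf4 (−0.15) and Gfi1 (−0.69), which support Th2 growth, were within 2-fold. Maf, an activator of Il4, was lower (6.16 and 10.48), with probe sets from −7.95 to 0.26. Nfil3 (−3.63), Pparg (−6.03), a nuclear receptor needed by Th2 cells, and Epas1 (−6.49), which encodes HIF-2α, were lower too. Pparg and Epas1 were at 5.27 and 7.18 against 11.30 and 13.67, and near their Th1 wild type levels of 5.99 and 6.24. Stat6 itself read 11.67 and 10.93, and Il4ra, the interleukin-4 receptor chain, 10.46 and 11.95; the median over the Il4ra probe sets was −0.54.

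Some chemokine genes of Th2 cells stood at the Th2 level. Ccr8 read 10.68 in Th1 STAT4-deficient and 10.54 in Th2 wild type cells, against 8.12 in Th1 wild type and 7.20 in STAT6-deficient Th2 cells. Ccl1, the ligand of CCR8, read 12.24 and 11.83, against 9.83 in Th1 wild type. Both genes, as a ligand and receptor pair, were therefore within 2-fold of Th2 wild type and over 2-fold above Th1 wild type. Ccr4 differed by −0.55 (8.27 and 8.82) and was also within 2-fold of Th1 wild type (7.95). Ccr3, the eotaxin receptor, was lower, at 4.05 against 5.97, but only at least 1.11-fold against the level minimum. Il17rb was the remaining member near Th2 wild type only, at 5.71 against 6.62 and close to the level minimum.

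Interleukin-10 family genes gave the widest gaps of the list. Il10 read 5.94 against 13.87 in Th2 wild type cells, 244-fold lower, although Th1 wild type cells read 12.74. Il24 read 6.31 against 14.60, 312-fold lower, with 8.58 in Th1 wild type. Both lay below both wild types, as did Maf, Nfil3, Crem and Ecm1, a secreted matrix protein of Th2 cells (9.37 against 14.32 and 10.89). On each of these genes the STAT4-deficient array was the lowest of these 3. The Th2 STAT6-deficient array read 6.61 for Il10 and 7.97 for Il24, also far below Th2 wild type.

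Start site windows of Ifng and Il4, and of the genes with the largest measured difference in each direction among those with a window that holds a STAT-type motif, are shown because STAT4 and STAT6 both bind palindromes of this kind. Windows run from 250 bases before to 50 after each RefSeq start, on build GRCm38.p6, read along the gene's strand. Capitals mark TTCNNNGAA or the form with 4 bases between TTC and GAA. Each pattern is its own reverse complement, so the search covers both strands; matches of both may overlap. Ifng lies at chr10:118440796-118441095 (+ strand), with the motif at −249 from the start. Il4 has 2 windows on the − strand, at chr11:53617289-53617588 and chr11:53618616-53618915, with motifs at −4 and −167. Cyp11a1 has a window at chr9:58014702-58015001 (+ strand), with the motif at −246, and another, not printed, at chr9:57997774-57998073 that holds neither form. Calhm6 lies at chr10:34127923-34128222 (− strand), with the motif at 17.
Ifng: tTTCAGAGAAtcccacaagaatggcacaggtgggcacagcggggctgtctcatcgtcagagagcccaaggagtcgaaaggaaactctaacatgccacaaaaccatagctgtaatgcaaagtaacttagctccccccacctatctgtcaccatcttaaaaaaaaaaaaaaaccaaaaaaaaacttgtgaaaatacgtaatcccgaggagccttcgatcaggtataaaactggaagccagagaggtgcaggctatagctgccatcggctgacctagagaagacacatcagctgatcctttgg
Il4, first window: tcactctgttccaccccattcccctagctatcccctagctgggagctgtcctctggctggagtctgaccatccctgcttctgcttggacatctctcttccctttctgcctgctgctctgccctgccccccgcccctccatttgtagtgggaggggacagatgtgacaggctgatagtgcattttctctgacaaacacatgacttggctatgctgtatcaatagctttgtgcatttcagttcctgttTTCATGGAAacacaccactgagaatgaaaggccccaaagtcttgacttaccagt
Il4, second window: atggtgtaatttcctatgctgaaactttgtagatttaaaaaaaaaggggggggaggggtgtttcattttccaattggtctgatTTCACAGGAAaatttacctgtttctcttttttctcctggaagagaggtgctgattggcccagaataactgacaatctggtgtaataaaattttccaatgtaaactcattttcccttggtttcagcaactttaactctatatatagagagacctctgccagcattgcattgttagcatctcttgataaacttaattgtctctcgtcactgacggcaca
Cyp11a1: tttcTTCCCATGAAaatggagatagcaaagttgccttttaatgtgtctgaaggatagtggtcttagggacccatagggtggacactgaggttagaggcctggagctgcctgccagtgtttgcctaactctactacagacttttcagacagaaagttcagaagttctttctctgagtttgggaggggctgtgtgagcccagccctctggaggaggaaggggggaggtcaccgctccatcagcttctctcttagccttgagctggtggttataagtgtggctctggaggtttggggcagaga
Calhm6: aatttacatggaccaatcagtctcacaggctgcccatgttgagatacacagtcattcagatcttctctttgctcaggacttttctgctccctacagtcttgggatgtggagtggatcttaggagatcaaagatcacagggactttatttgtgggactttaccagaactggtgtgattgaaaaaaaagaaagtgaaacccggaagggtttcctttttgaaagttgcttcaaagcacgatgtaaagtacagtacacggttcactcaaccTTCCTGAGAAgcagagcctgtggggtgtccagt
The first Il4 window and the Ifng window hold the shorter spacing, and the second Il4 window and the printed Cyp11a1 window the longer one. No such letters occur in the windows of Il5, Il13, Gata3, Tbx21, Xcl1, Il6 or Il21, which says nothing about binding elsewhere.

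Of all 32851 windows, 8.30% held TTCNNNGAA, 6.95% the form with 4 bases and 14.6% either. By gene, 14.7% of 1082 called higher and 14.1% of 2298 called lower held either motif in some window, beside 13.9% of 10323 genes at the level minimum. The shares in the called genes were close to that background.

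Other cytokines and chemokines showed the Th1 or the Th2 side gene by gene. Of 18 at the level minimum 4 were higher and 10 lower, beside 11.1% and 21.8% of all genes. Their median was −1.27, and 12 were within 2-fold of Th1 wild type only. Il6 read 3.38 against 12.63 in Th2 wild type cells, at least 112-fold lower, with 4.29 in Th1 wild type. Th2 wild type was the lone bright array for Il6. The neutrophil chemokine Cxcl3 read 2.96 and 10.52, its relative Cxcl2 7.92 and 11.39, and Il1a 4.47 and 9.29. Penk, the enkephalin precursor, read 8.76 and 13.75. Csf2, which encodes GM-CSF, read 10.79 against 12.90, and was below Th1 wild type as well (13.31). On the higher side Cxcl10, a chemokine induced by interferon, read 10.67 and 7.79. Il2, the growth factor of activated T cells, read 14.39 and 12.46, with 14.53 in Th1 wild type and 14.77 in STAT6-deficient Th2 cells, leaving Th2 wild type lowest.

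TNF superfamily ligands, through which T cells license other cells, stood higher in Th1 STAT4-deficient cells in 6 of 10, with 2 lower. Their median was 1.29, beside 11.1% higher, 21.8% lower and a median of −0.25 over all genes. Cd70 (2.43), Ltb (2.14), Tnfsf4, the OX40 ligand (1.75), Cd40lg (1.72), Tnfsf14, known as LIGHT (1.33), and Tnfsf8 (1.25) were higher. Cd40lg read 10.13 and 8.41, with 10.43 in Th1 wild type. Tnfsf13b, which encodes the B cell factor BAFF, read 6.08 and 9.83 on its main probe set, but the median over its probe sets was 0.43. Of 14 TNF receptors 3 were higher and 3 lower (21.4% each), and the lower share was near that of all genes. Tnfrsf25 (1.90), Fas (1.22) and Tnfrsf21 (1.18) were higher, and Tnfrsf9, which encodes 4-1BB (−2.78), Tnfrsf13b (−2.03) and Tnfrsf8, which encodes CD30 (−1.88), lower.

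Costimulatory and inhibitory receptors were higher in 8 of 16 and lower in 3, beside 11.1% and 21.8% of all genes. Their median was 0.89, and 9 were within 2-fold of Th1 wild type only. Cd160 (9.69 and 7.09), Vsir, which encodes VISTA (12.20 and 9.91), and Btla (12.52 and 10.39) were the highest of them. Cd6 (1.73), Cd96 (1.70) and Slamf6 (1.57) were higher as well. Pdcd1lg2, the PD-1 ligand PD-L2, was the lowest, at 7.62 against 11.70 in Th2 wild type cells and 9.76 in Th1 wild type. Cd200r1 (−2.21) and Lag3 (−1.54) were lower. Of 7 chemokine receptors outside the Th1 and Th2 lists 4 were lower and 1, Gpr183 (1.90), an oxysterol receptor that guides migration, was higher. Ccr1 read 5.03 and 9.92. Ccr2 was lower by −2.13 on its main probe set, with 0.22 as the median over its probe sets.

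Cytotoxic genes did not follow 1 direction. Of 10 granule genes at the level minimum 2 were higher and 4 lower, beside 11.1% and 21.8% of all genes. Granzyme A (Gzma) read 8.54 against 13.67 in Th2 wild type cells, a difference of −5.13, and 12.59 in Th1 wild type. Granzyme B (Gzmb) read 11.73, 14.81 and 12.86 on the same arrays. For both, the STAT4-deficient array was lowest of these 3, but Gzma was lower still in STAT6-deficient Th2 cells (6.39). Nkg7, a granule membrane protein, read 8.95 and 7.10, far below the 12.32 of Th1 wild type. Prf1, which encodes perforin, was 1.23 higher on its main probe set, but −0.14 as the median over its probe sets.

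Only 4 of 14 measured NK-type lectin receptor genes were at the level minimum, and 3 were higher, beside 11.1% of all genes. Klrd1, which encodes CD94, read 9.58 in STAT4-deficient Th1 cells, 3.36 in Th2 wild type, 11.36 in Th1 wild type and 7.38 in STAT6-deficient Th2 cells. Th2 wild type was the only array with Klrd1 below the level minimum, and STAT4-deficient cells stood at least 13.6-fold above it. Klrb1f read 8.19 and 4.34, with 7.90 in Th1 wild type and 4.44 in STAT6-deficient Th2 cells, and was thus bright on both Th1 arrays alone. Klrc1 (3.63 and 3.91), which encodes the CD94 partner NKG2A, and Klrk1 (4.67 and 4.00), which encodes NKG2D, were below the level minimum on both compared arrays, while Th1 wild type read 7.74 and 9.56.

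Genes of the early response to restimulation were called in both directions. Of 33 T cell receptor response genes 4 were higher and 6 lower, with a median of 0.09, beside 11.1% higher and 21.8% lower over all genes. After median centring 1 was higher and 8 lower (median −0.15), and after quantile normalization 10 and 4 (median 0.64). More members than in any other list, 11, were within 2-fold of Th2 wild type only, 3 of Th1 wild type only, 12 of both and 7 of neither, beside 5.22%, 26.9%, 61.9% and 5.97% of all genes. The median against Th1 wild type was −1.15. Jun, an AP-1 subunit, read 10.42 and 9.53 against 12.25 in Th1 wild type, and Junb read 11.68 and 11.44 against 12.82. The zinc finger factor Egr2 read 11.92 and 12.30 against 13.30. In all of these the compared arrays were closer to each other than to Th1 wild type.

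Within that list Cd69, an early activation marker, was higher (12.11 and 10.29), as were Rel (1.19), Spry1 (1.08) and Nfkbid (1.05), although the last 3 were not called after median centring. Ier3 (−2.62), Fosl1 (−2.22), Fosl2 (−1.80), Dusp4 (−1.49), Nr4a2 (−1.15) and Egr1 (−1.10) were lower. The median over the Nr4a2 probe sets was 0.03. Of 14 T cell receptor complex genes 2 were higher and 1 lower, beside 11.1% and 21.8% of all genes. Cd4 (1.90) and Cd3e (1.08, and 0.84 after median centring) were higher and Cd2 (−1.11) lower, and 11 of the 14 were within 2-fold of both wild types. In bulk RNA, fewer cells of a type and less RNA per cell cannot be told apart, here and for every gene.

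In the JAK-STAT pathway the share of lower calls was near that of all genes (21.8%). Of 14 members 3 were lower and none higher by the deposited values, Jak3 (−1.90), Il10ra (−1.67) and Stat3 (−1.19). After median centring 6 were lower, and after quantile normalization 2 were higher and 2 lower. Il10ra is uncertain, with 1.65 as the median over its probe sets. Within the list 10 members were within 2-fold of both wild types. Among 15 feedback genes induced by STATs, Socs3 was lower, at 8.42 against 11.77 in Th2 and 11.17 in Th1 wild type cells, a 10.2-fold gap to Th2. Bcl3 (−2.21), Socs2 (−1.11) and Ptpn2 (−1.03) were lower, and the kinase gene Pim2 (1.37) and the phosphatase gene Ptpn6 (1.18) higher. Socs1 (−0.96) and Cish (−0.55) were within 2-fold, and the list's median of −0.30 was 0.04 after quantile normalization.

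Interferon-stimulated genes lay on both sides. Of 31 at the level minimum 9 were higher and 5 lower, beside 11.1% and 21.8% of all genes. Their median was −0.11 (0.17 after quantile normalization and 0.07 after loess). The higher ones were the GTPases Iigp1 (10.86 and 6.47), Gbp2 (11.92 and 9.92) and Gbp3 (9.99 and 8.13), the antiviral genes Ifit3 (9.19 and 6.50), Ifit1 (11.14 and 9.10), Ifit2 (8.85 and 6.83), Rtp4 and Oasl2, and the regulator Irf1. The lower ones were Mx1, an antiviral GTPase (4.72 against 8.59), Usp18, which restrains interferon signalling (7.41 against 10.14), Psmb8 (−1.47), Isg20 (−1.32) and Irf7 (−1.12). Mx1 and Usp18 were near their Th1 wild type levels of 5.57 and 7.77. Iigp1, Irf1 and Rtp4 were above both wild types. Ifit1, Ifit2, Ifit3, Mx1 and Usp18 were all brighter on the Th2 STAT6-deficient array, at 12.07 or more.

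Of 13 genes of resting and recirculating T cells 5 were higher and 2 lower, beside 11.1% and 21.8% of all genes. Their median was 0.74. After median centring 4 were higher and 5 lower, and after quantile normalization 7 and 1. Dapl1 read 10.85 and 6.12, with 9.07 in Th1 wild type cells, a 26.5-fold difference. Foxp1, a factor that maintains quiescence (2.22), the homing receptor Ccr7 (1.44), Cd27 (1.35) and Klf2 (1.12), which controls exit from tissues, were higher. Il7r (−1.39) and Satb1 (−1.35) were lower and lay below both wild types.

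Among 13 regulatory T genes 6 were lower and 2 higher, beside 21.8% and 11.1% of all genes. The median was −0.97, against −0.25 over all genes. Foxp3, their master regulator, read 6.81 against 5.13 in Th2 and 4.34 in Th1 wild type cells, above both but not far above the level minimum. Nt5e, which encodes the ectoenzyme CD73, read 8.56 and 5.38. Ctla4, an inhibitory receptor, ran the opposite way at 9.68 against 13.62, as did Ebi3 (−2.83) and Entpd1 (−2.25). The 2 higher genes and the lower Ctla4 and Entpd1 are all parts of the regulatory program, so members were called both ways, though more often lower. Among 13 Th17 and follicular helper genes 3 were higher and 6 lower, beside the same 11.1% and 21.8%. Il21 read 4.67 against 11.62 in Th2 and 12.30 in Th1 wild type cells, at least 55.9-fold below Th2, and its other probe set differed by −3.44. Il1r1 (−2.75), Icos (−1.95) and Il17a (−1.94) were lower, and Il6ra (2.39), Ccr6 (1.57) and Sh2d1a (1.15) higher.

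Of 18 other lineage regulators 5 were lower and 1 higher, beside 21.8% and 11.1% of all genes. Prdm1, which encodes Blimp-1, read 5.92 against 11.09 in Th2 and 7.35 in Th1 wild type cells, 36.1-fold below Th2. Id2, an inhibitor of helix-loop-helix factors, read 10.58, 13.17 and 12.43 on these arrays. Ikzf3 (−2.45), Zbtb32 (−2.19) and Rbpj (−1.24), the nuclear partner of Notch, were lower. Tox, a chromatin factor, was the only higher member, at 9.30 against 4.75 and 7.22. Bhlhe40 (0.10), Ikzf1 (−0.11) and Notch1 (−0.07) were nearly equal. The median of −0.25 equalled that of all genes and was 0.24 after quantile normalization.

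Genes of cell division gave the most uniform difference. Of 24 DNA replication genes 23 were lower in Th1 STAT4-deficient than in Th2 wild type cells and none was higher. Over all genes 21.8% were lower and 11.1% higher. The median of the replication genes was −2.52, and 23 were also lower after quantile normalization (median −2.11) and loess (−2.07). The licensing factor Cdc6 read 4.31 against 9.58, at least 13.6-fold lower, and Rrm2, a subunit of ribonucleotide reductase, 7.91 against 12.21. Tk1, a thymidine kinase, read 7.04 and 10.43. All 6 genes of the MCM helicase were lower, from −2.89 (Mcm5) to −1.82 (Mcm3). Tyms (−3.53) and Mcm10 (−1.76) were lower on their main probe sets, but 0.08 and 0.80 as medians over their probe sets. Pcna, the replication clamp, differed by −0.85 (13.17 and 14.02).

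Th1 wild type cells were low in these genes as well. Cdc6 read 4.24, Tk1 7.34 and Mcm5 9.89 there, and 20 of the 24 members were within 2-fold of Th1 wild type only, with none near Th2 wild type only. Mitosis genes followed, with 23 of 24 lower and none higher, beside 21.8% and 11.1% of all genes. Their median was −1.76, and 21 members were near Th1 wild type only. After quantile normalization 16 were lower, with a median of −1.27. Kif23 (−3.10), Aurka (−2.98), Aurkb (−2.97), Cdk1 (−2.68), Top2a (−2.60) and Bub1 (−2.05) led; these encode motors, kinases and other parts of the dividing cell. Mki67, the proliferation marker Ki-67, read 10.63 and 12.52, with 10.27 in Th1 wild type. Cenpf was lower by −1.42 but 0.57 as the median over its probe sets. Of 15 cyclins and kinase inhibitors 9 were lower and none higher, among them the S phase cyclins Ccne2 (−4.11) and Ccne1 (−2.53) and the inhibitor Cdkn2d (−3.24); 1 was higher after quantile normalization. Ccnd3 was lower by −2.22, with 0.52 as the median over its probe sets.

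**Figure D3:**
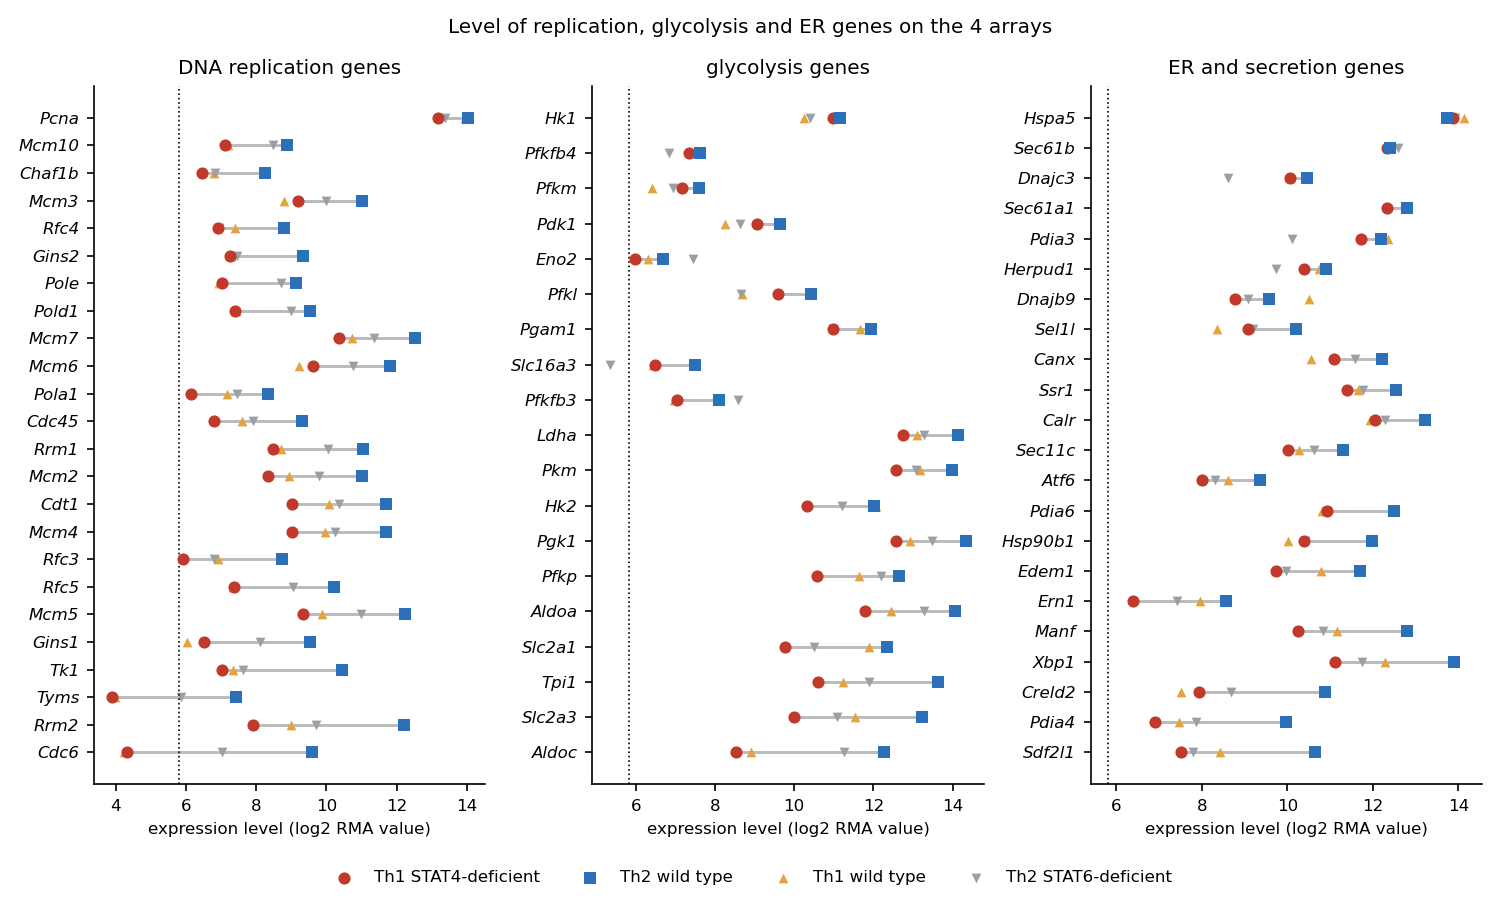
Expression level (log2 RMA value, x axis) of each measured DNA replication gene (left), glycolysis gene (middle) and endoplasmic reticulum or secretion gene (right) on the 4 arrays, with a grey line joining Th1 STAT4-deficient and Th2 wild type and a dotted line at the level minimum of 5.82. Th2 wild type is the higher end of nearly every line, and Th1 wild type lies mostly beside Th1 STAT4-deficient in the replication panel.

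Transcripts of sugar metabolism genes were also mostly lower. Of 19 glycolysis genes 12 were lower and none was higher, beside 21.8% and 11.1% of all genes. Their median was −1.37, and 10 were lower after quantile normalization and after loess. Aldoc, an aldolase, read 8.52 and 12.26, and the glucose transporter genes Slc2a3 and Slc2a1 read 10.01 against 13.22 and 9.77 against 12.34. Tpi1 (−3.04), Aldoa (−2.25), Pfkp (−2.07), Pgk1 (−1.76), Pkm (−1.44) and Ldha (−1.37) cover most steps from sugar to lactate. Slc2a1 and Hk2 also stood below Th1 wild type, which read 11.90 and 12.08. The array's own 3′ control signal for Gapdh read 12.84 on the STAT4-deficient and 14.49 on the Th2 wild type array.

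Among 18 hypoxia genes 13 were lower and none was higher, beside 21.8% and 11.1% of all genes. The median of the hypoxia genes was −1.30, and 6 were lower after quantile normalization and after loess. Bnip3, a mitophagy receptor, read 7.92 against 12.95 in Th2 and 8.39 in Th1 wild type cells, 32.7-fold below Th2. Selenbp1 (−3.46), Mxi1 (−3.14), Egln3 (−2.77), P4ha2 (−2.63) and Ero1a (−2.25) followed. Hif1a, the oxygen-sensitive factor of glycolysis, read 12.15 against 13.48 in Th2 and 13.51 in Th1 wild type cells. Both wild types were equal for Hif1a, and the STAT4-deficient array stood below them.

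Lipid and protein making genes were lower more often than all genes, of which 21.8% were lower and 11.1% higher. The sterol and endoplasmic reticulum members were bright, and all reached a level minimum at the 75th percentile. Of the 7725 genes that did so 2351 were lower, with a median of −0.58. Among 19 sterol synthesis genes 10 were lower and none was higher, at a median of −1.16 (7 lower after quantile normalization). Hsd17b7 read 7.95 and 11.04 and Lss, lanosterol synthase, 7.38 and 10.13. Pmvk (−2.36), Fdps (−2.12), Dhcr7 (−2.10) and Nsdhl (−1.90) were lower. Of 22 genes of the endoplasmic reticulum and secretion 15 were lower and none was higher, at a median of −1.23 (9 lower after quantile normalization). Sdf2l1 (−3.13), Pdia4 (−3.08), Creld2 (−2.95), Manf (−2.55) and Ern1 (−2.17) were lower, and Xbp1, the unfolded protein response factor that expands the secretory system, read 11.12 against 13.90 in Th2 and 12.29 in Th1 wild type cells. Hspa5, the chaperone BiP, differed by 0.16. Amino acid and stress genes linked to ATF4 were lower in 11 of 18, none was higher, and the median was −1.30. Cth, which makes cysteine, read 5.23 against 9.97, and Asns, asparagine synthetase, read 8.54 against 11.36. Vldlr (−2.86), Slc7a3 (−2.24), Psph (−1.97) and Ddit4 (−1.87) were lower.

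**Figure D4:**
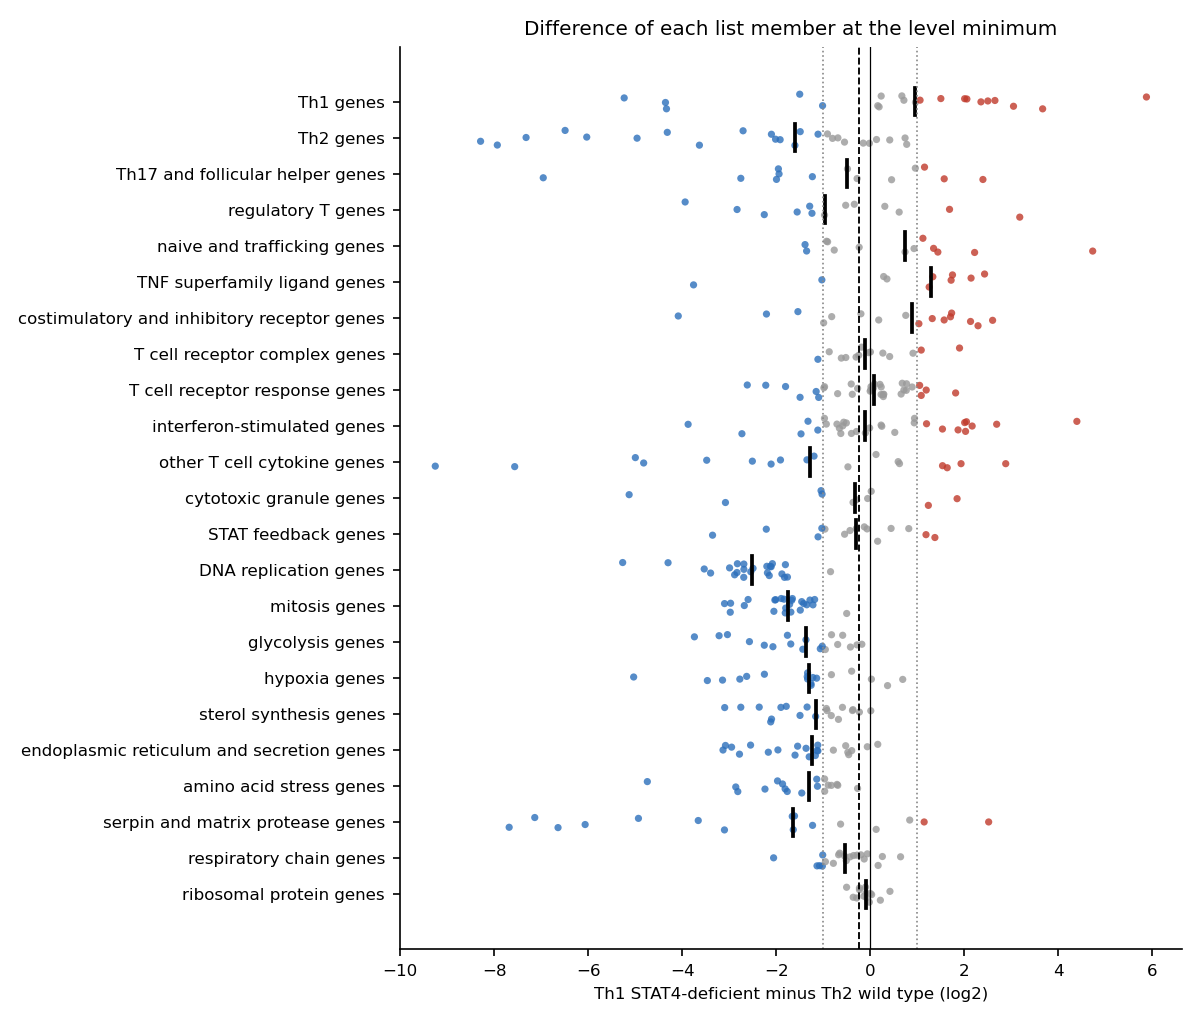
Th1 STAT4-deficient minus Th2 wild type difference (log2, x axis) of every member at the level minimum of 23 gene lists, 1 point a gene. Red points were called higher, blue lower and grey not called; black bars are list medians, the dashed line the median of all genes (−0.25) and dotted lines 2-fold. DNA replication and mitosis genes lie almost wholly to the left, while ribosomal protein genes keep within 2-fold.

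Among lists of broadly expressed genes the ribosomal protein genes differed least. None of 14 ribosomal protein genes was called and their median was −0.10 (0.21 after loess). Of 20 respiratory chain genes 5 were lower, beside 21.8% of all genes, with Ndufv1 at −2.06 and a median of −0.53. After quantile normalization 1 was lower and 1 higher. Of 8 reference genes Gusb (−1.34) and Hprt (−1.06) were lower, and neither was called after quantile normalization or loess.

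Steroid and lipid mediator genes held large differences both ways, 6 higher and 5 lower of 15, beside 11.1% and 21.8% of all genes. Cyp11a1, the enzyme that starts steroid synthesis, read 5.07 in STAT4-deficient Th1 cells, 13.46 in Th2 wild type, 5.24 in Th1 wild type and 5.77 in STAT6-deficient Th2 cells. Th2 wild type was the only array with the gene above the level minimum, and the difference was at least 199.6-fold, with another probe set at −1.41. Star (−0.21) and Fdx1 (−0.34), which supply that enzyme with cholesterol and electrons, were within 2-fold. Alox5ap, which encodes the activating protein of 5-lipoxygenase, read 10.34 against 5.54 in Th2 and 6.22 in Th1 wild type cells, above both. The enzyme itself, Alox5, differed by 0.08, and Ltc4s, the leukotriene C4 synthase, was 1.17 higher. Ptgs2, which encodes cyclooxygenase-2, read 3.68 and 7.68, and the prostaglandin receptor genes Ptger2 (−1.63) and Ptgir (−1.50) were lower while Ptger4 (1.46) was higher.

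Among 16 serpin and matrix protease genes 11 were lower and 2 higher, beside 21.8% and 11.1% of all genes. The median was −1.65, against −0.25 over all genes. Mmp10 read 6.18 and 13.86, a 205-fold difference, and Mmp13 3.43 and 10.56, with 7.23 and 8.04 in Th1 wild type. Both metalloproteinase genes were below both wild types. Serpinf1 (−6.64), Adamtsl3 (−6.06), Adam8 (−4.93) and the inhibitor Timp1 (−3.66) were lower, and Adamts6 (2.52) and Mmp2 (1.14) higher. Of 12 integrin genes 6 were lower and 2 higher, beside the same 21.8% and 11.1%. Itga3 (−2.67), Itgb3 (−2.28), Itgal (−1.54) and Itgb2 (−1.21) were lower; the last pair forms LFA-1. Itga6, a chain of laminin receptors (2.08), and Itga4, a chain of receptors for homing to gut and inflamed tissue (2.02), were higher. Itgav was lower by −1.27, with 0.07 as the median over its probe sets.

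Survival genes were mixed, with 2 of 16 higher and 5 lower, beside 11.1% and 21.8% of all genes. Their median of −0.29 was close to the −0.25 of all genes and was 0.23 after quantile normalization. Bcl2l11, which encodes the death protein BIM, read 12.78 against 9.98 in Th2 and 12.61 in Th1 wild type cells, so Th2 wild type stood alone. Bbc3 (1.29) was higher and Casp8 (−1.67), Bik (−1.53), Bad (−1.24), Pmaip1 (−1.16) and Casp1 (−1.11) lower, while Bcl2 (−0.37) and Mcl1 (−0.63) were within 2-fold. Of 13 heat shock genes 4 were lower, beside 21.8% of all genes, and none was higher by the deposited values. The lower ones were Dnajb1 (−1.44), Hspa1a (−1.37), Hmox1 (−1.34) and Hspa4 (−1.01, with 0.30 as the median over its probe sets). After quantile normalization 1 was higher.

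Enzymes that place or remove histone methylation were called about as often as other genes. Of 24 enzymes of histone H3 lysine 27 and lysine 4 methylation 2 were higher and 4 lower, beside 11.1% and 21.8% of all genes, and 14 were within 2-fold of both wild types. After median centring 2 were higher and 7 lower. The demethylase gene Kdm6b read 13.21 against 11.09 in Th2 and 13.24 in Th1 wild type cells, and Cbx7 was 1.37 higher. The methyltransferase gene Ezh2 (10.88 against 12.37), Jarid2 (−1.60), Kdm5b (−1.21) and Kdm5c (−1.08) were lower. The list's median of −0.49 was 0.03 after quantile normalization. Of 11 DNA methylation genes 5 were lower and 1 higher. Uhrf1 (6.95 against 10.91) and Dnmt1 (8.92 against 11.37), which copy methylation as DNA replicates, were lower, as were Mbd2 (−1.69), Gadd45a (−1.62) and Gadd45g (−1.26). Dnmt3b was 1.02 higher.

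Over all the gene lists 623 members were at the level minimum, 85 higher and 254 lower, beside 11.1% and 21.8% of all genes. Of the 623 members 233 were within 2-fold of Th1 wild type only, 48 of Th2 wild type only, 236 of both and 106 of neither. Over all genes these shares were 26.9%, 5.22%, 61.9% and 5.97%. The T cell receptor response list held 11 of the 48 members near Th2 wild type only. The Th1 list held 5 (Stat4, Il18rap, Cxcr3, Runx3 and Ccl4) and the Th2 list 3 (Ccr8, Ccl1 and Il17rb).

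**Figure D5:**
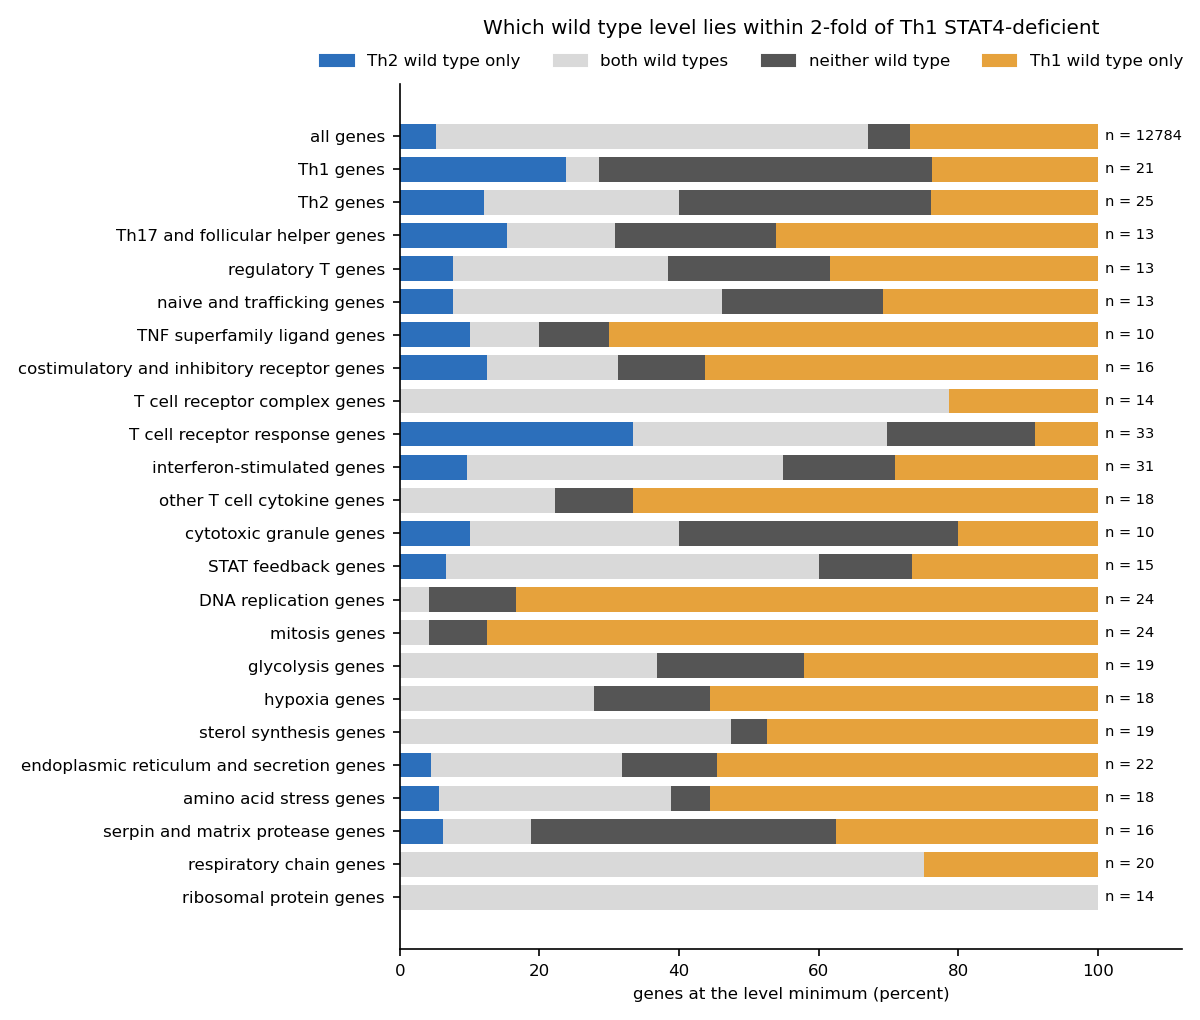
Percent of genes at the level minimum (x axis) whose Th1 STAT4-deficient level lies within 2-fold of Th2 wild type only (blue), of both wild types (light grey), of neither (dark grey) or of Th1 wild type only (orange), for all genes and for 23 gene lists with their numbers. The replication and mitosis bars are mostly orange, the T cell receptor response bar has the longest blue portion and 10 of the 21 Th1 genes are near neither.

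The 20 genes farthest above Th2 wild type by the deposited values included several named above (Klrd1, Xcl1, Alox5ap, Dapl1, Tox, Iigp1 and Klrb1f). Sntb1, a syntrophin, was at least 11.7-fold higher (9.37 and 4.05), with probe sets from 1.56 to 5.32. Myl10, a myosin light chain, was at least 12.1-fold, Calhm6 at least 19.4-fold and Igfbp7 at least 14.7-fold higher, the last with probe sets from 0.20 to 4.49. Lad1, which encodes ladinin, read 11.90 in Th1 STAT4-deficient and 11.79 in STAT6-deficient Th2 cells, against 6.84 in Th2 and 7.31 in Th1 wild type cells, and was 33.3-fold above Th2 wild type. Both knockout arrays were thus high and both wild types low. The remaining genes were Lrig1 (17.4-fold), St8sia6, Gm4951, Ipcef1, Ccn3, Ms4a4c, Nsg2 and Hsd17b11. Lrig1 (10.26 and 10.09), Ms4a4c (10.85 and 10.73) and Nsg2 (9.73 and 9.72) were nearly equal on the STAT4-deficient and wild type Th1 arrays. STAT6-deficient Th2 cells read 10.13, 11.35 and 9.22 for these genes, which left Th2 wild type alone at the low end.

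On the lower side the 20 farthest genes by the deposited values were Il6, Cyp11a1, Il24, Il10, Mmp10, Cxcl3, Il5, Mmp13, Il21, Serpinf1 and Epas1, given above, and 9 others. Calcrl, a receptor of calcitonin-related peptides (at least 73.2-fold), Rnf152, a ubiquitin ligase (49.5-fold), Nts, the neurotensin precursor (71.3-fold), the gap junction gene Gja1 (24.3-fold), Arfgef3 (16.4-fold), Olr1 (16.5-fold), the kinase gene Rps6ka5 (28.8-fold), Gpm6b (40.1-fold) and Tpbg (49.8-fold), all as lower bounds, completed them. Rnf152 read 3.84 against 11.45, and 3.25 and 4.15 on the other arrays. Arfgef3 read 3.23 against 9.85, and 3.16 and 5.27 on the other arrays. For both, Th2 wild type was the only array above the level minimum. Gja1 read 3.48 and 10.42, with 9.88 in Th1 wild type and 6.71 in STAT6-deficient Th2 cells, and its probe sets ran from −6.94 to −2.27.

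Some genes lay outside the range of both wild types, and those named here beyond the ones already given were chosen after their values were seen. Above both, by the distance to the nearer wild type, stood Lad1, Alox5ap, Ccn3, Igfbp7, Atp1b1, Myl10 and Cd83. Ccn3 read 8.02 against 4.19 and 3.88, Atp1b1, a sodium pump subunit, 10.97 against 7.64 and 7.84, and the maturation marker Cd83 12.19 against 9.74 and 9.68, with Th2 wild type first. Below both stood Il21, Il10, Gja1, Mmp13, Esm1, Gem, Gzma and Msc. Esm1 read 3.19 against 7.77 and 8.93, and the small GTPase gene Gem 6.05 against 10.43 and 10.26. For Ccn3, Atp1b1, Cd83, Esm1 and Gem the wild types were closer to each other than to the STAT4-deficient array. The ranking by distance to the nearer wild type favours such genes. STAT6-deficient Th2 cells read 8.55 for Ccn3, 11.47 for Cd83 and 3.79 for Esm1, each within 2-fold of the STAT4-deficient array. For Atp1b1 (8.53) and Gem (8.45) they stood between that array and the wild types.

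Most markers of other cell types were low or not called, with exceptions on each side. Of 9 myeloid and dendritic markers at the level minimum 5 were lower and 1 higher, beside 21.8% and 11.1% of all genes. The lower ones were Adgre1 (5.47 and 8.26), Cd68 (−1.42), Itgax (−1.35), Fcgr3 (−1.04) and H2-Aa (−1.03, with 0.19 as the median over its probe sets). Lyz2 (1.57) was higher. With the dimmer reading set to the level minimum, Adgre1 was still at least 5.42-fold lower. Cd68, Itgax, Fcgr3, H2-Aa and Lyz2 then had bounds under 2-fold. The summed linear level of this list was 1015 in Th1 STAT4-deficient and 1463 in Th2 wild type cells. The gamma delta T cell receptor segment Trgv4 read 8.57 against 6.28 in Th2 and 5.12 in Th1 wild type cells, and the summed level of its 3 markers was 540.3 and 196. The mast cell protease gene Cpa3 read 5.63 and 8.64, while Kit ran the other way at 6.14 and 3.95, at least 1.25-fold higher. The mast cell and basophil genes Mcpt8, Ms4a2 and Fcer1a were below the level minimum on both arrays. Of the CD8 and NK markers Cd8b1 (6.73 and 8.54) was lower and Fcgr4 (5.82 and 3.86) higher, its brighter reading being at the level minimum. Cd8a read 5.96 and 6.14, and Ncr1 and Klra8 were below the level minimum. Among B cell markers Cd79a was 1.70 higher at 5.99, near the level minimum, and Ms4a1 was below it. Summed linear levels in Th1 STAT4-deficient and Th2 wild type cells were 339 and 297 for B cell, 398 and 566 for CD8 and NK, 293 and 555 for mast cell and basophil, 313 and 236 for neutrophil, and 429.9 and 362 for erythroid and platelet markers. The part of such cells in the differences given above was not tested.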

How the data were processed

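Total RNA from 4 cultures was hybridized to Affymetrix Mouse Genome 430 2.0 arrays, 1 array a group, and the authors deposited 1 log2 value per probe set, made with RMA per the submitters' processing notes (version not given in the sources used here). RMA keeps no count of molecules, so precision is limited by the number of arrays. The sources used here do not say whether all arrays were normalized together. Of 45101 probe sets 64 were controls. Of the rest 34945 had 1 gene symbol in the platform annotation, 932 several and 9160 none, and 34741 matched a RefSeq gene; these gave 18193 genes, each read from its brightest probe set over the 4 arrays. Differences, folds, list counts and promoter motifs were computed with python 3.11.15, pandas 2.3.3, numpy 2.4.6 and statsmodels 0.14.6, drawn with matplotlib 3.10.9, and tested on simulated data. No test was possible with 1 array a side.

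The genes named are Stat4, Stat6, all Th1 and Th2 list members, the 20 largest differences each way whose probe sets were on the same side, and up to 6 of the largest called members of each other list. Further list members are named by role, some of them called and chosen after their values were seen. The comparison and the gene lists were chosen with earlier results of these data known. Some list genes are not analysed here. Alternatives were median centring, quantile normalization, loess, scaling to hybridization controls, 2 other level minimums, the median of all probe sets of a gene, agreement of all probe sets, and 3-fold and 4-fold limits.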

Additional observations from a re-analysis of the deposited data

How the results depend on the processing

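Median centring gave 796 higher genes (17.4% of those called) and quantile normalization 1690 lower genes, with 47.7% of the called genes higher. Quantile normalization and loess each called 1 Th2 gene higher. With the level minimum at the 75th percentile 2724 genes were called, 373 of them higher (13.7%), and with no minimum 2459 were higher (46.2%). A 3-fold limit called 1737 genes (509 higher, 1228 lower), 212 list members and 234 of the named genes. A 4-fold limit called 918 genes (213 higher, 705 lower, 23.2% higher), 154 list members and 176 of the named genes. At both limits 3 Th1 genes were lower. With the median of all probe sets of a gene the sign turned for Prf1 (−0.14), Tnfsf13b (0.43), Ccr2 (0.22), Il10ra (1.65), Nr4a2 (0.033), Mcm10 (0.80), Tyms (0.079), Cenpf (0.57), Ccnd3 (0.52), Lta4h (0.39), Hspa4 (0.30), Itgav (0.068) and H2-Aa (0.19); the cause was not tested. Over all list members pooled, the numbers near each wild type stayed within 1.5-fold of those given under the 4 scalings. Genes near the level minimum have signal close to background, which limits what their differences show. Some called genes had a bound under 2-fold when the dimmer reading was set to the level minimum. Among them were Il12rb2 (1.64), Ccr3 (1.11), Oasl2 (1.07), Hspa1a (1.29), Mmp2 (1.41), Prf1 (1.78), Foxp3 (1.99), Ccr6 (1.99) and Cd79a (1.12). No paired analysis was possible because each group has 1 array.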
